A study of Mus musculus with 12 samples.

Results

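The 34 genes described here code for the proteins that bring long-chain fatty acids into heart muscle and break them down by beta-oxidation. They were taken as a list of mouse symbols and found in a table of read counts by Ensembl gene ID. All 34 were found among the 21959 IDs of the table, and all 34 were among the 12384 genes with enough counts to test. They were grouped by step into uptake, activation, the carnitine shuttle, malonyl-CoA control, mitochondrial chain shortening, auxiliary enzymes, electron transfer, peroxisomal oxidation and uncoupling. The samples are heart ventricles of 12 male mice aged 7 weeks, all fed chow. The 6 wild-type mice (WT) are compared with 6 that have a cardiac-specific knockout (Vps13c-cKO) of Vps13c, which encodes a bridge-like lipid transfer protein of organelle contact sites. The driver that restricts the knockout to the heart, and whether WT mice carry any engineered allele, are not stated in the labels. Each sample is 1 mouse by its title.

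Fatty acids are the main fuel of the adult heart. Lipoprotein lipase frees them from circulating triglyceride, membrane transporters and cytosolic binding proteins carry them in, and acyl-CoA synthetases activate them. The carnitine shuttle then moves the acyl group into the mitochondrion, a step that malonyl-CoA restrains. In the matrix each round of dehydrogenation, hydration, second dehydrogenation and thiolysis removes an acetyl-CoA, with electrons passed to the respiratory chain by the electron transfer flavoprotein. Peroxisomes shorten very long chains, and the uncoupling proteins Ucp2 and Ucp3 belong to the mitochondrial carrier family. Many of these genes are textbook targets of the nuclear receptors PPAR alpha and ERR alpha and of their coactivator PGC-1 alpha.

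Libraries held 13348018 to 15562942 gene counts in WT and 12484523 to 14188716 in Vps13c-cKO, and the share of mitochondrially encoded genes was 29.2% to 31.4% in WT and 30.6% to 32.2% in Vps13c-cKO. Vps13c itself (chromosome 9) was at 61.9 ± 4.85 CPM in WT and 18.2 ± 1.58 CPM in Vps13c-cKO (29.4% of WT), a change of -1.77 ± 0.06 on the log2 scale with an adjusted p of 4.47e-14. Levels are CPM, read counts relative to library size, with library sizes scaled by TMM. An error after a CPM mean is the SD over the 6 mice of a group, and an error after a log2 fold change (Vps13c-cKO minus WT) is its standard error. The test was edgeR's quasi-likelihood test with p-values adjusted over the 12384 genes by Benjamini-Hochberg, and "fell" or "rose" is used at an adjusted p under 0.05. The mice may differ in ways the labels do not give, since no litter, batch or collection time is stated.

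Of the 34 genes, 18 fell, 1 rose and 15 did not pass the test. Of all tested genes, 5.10% fell and 5.65% rose. The log2 fold change was below 0 for 32 of the 34 genes, and the median over the 34 was -0.16. Over all tested genes the median was 2.75e-05 and 6190 of 12384 values were below 0. The 18 genes that fell did so by small amounts, 8.50% to 20.7% with a median of 11.4%. In 13 of the 34 genes every Vps13c-cKO mouse lay below every WT mouse, which held for 2.18% of all tested genes. The opposite order held for 1 gene, Ucp2, and for 2.75% of all tested genes.

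**Figure D1:**
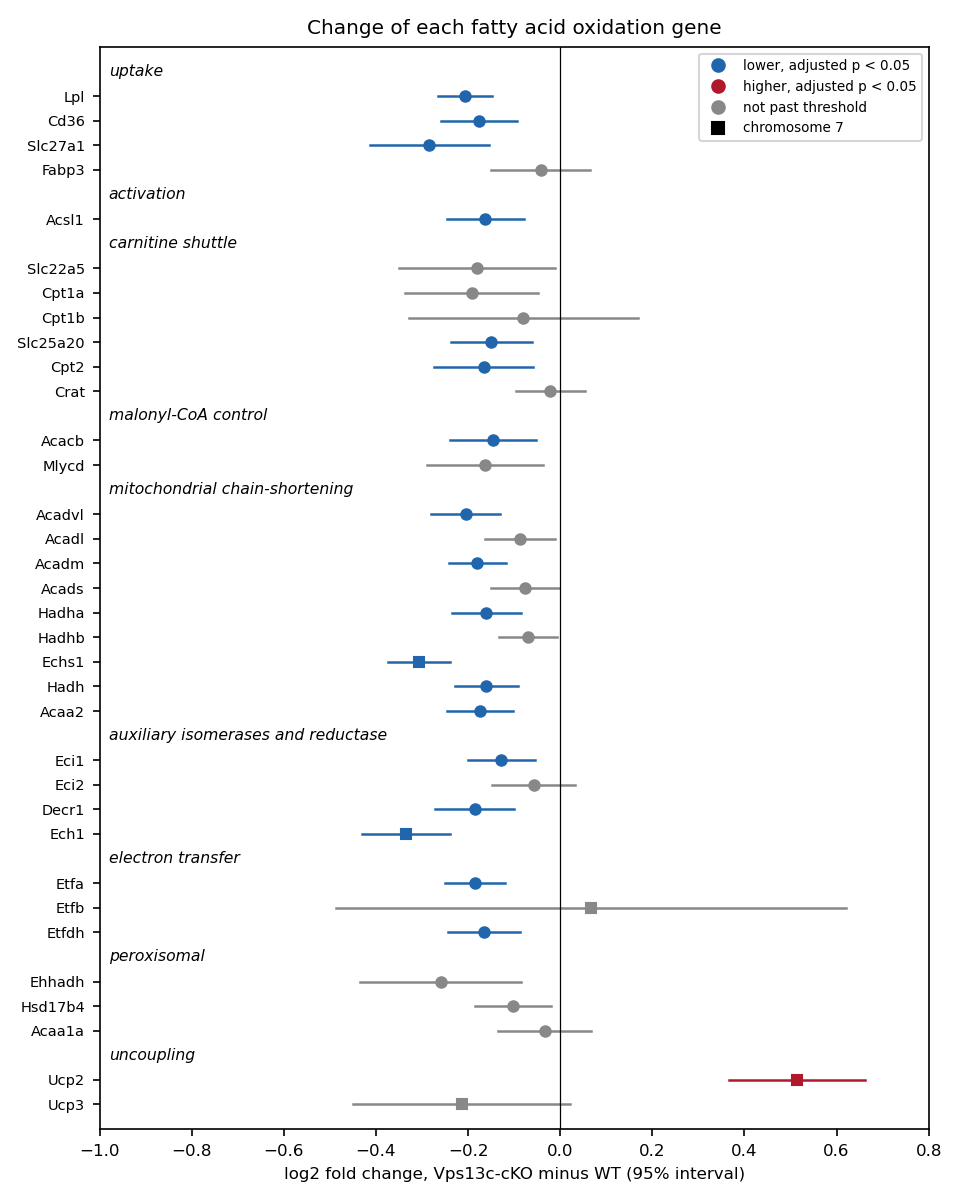
Log2 fold change (x axis, Vps13c-cKO minus WT) with 95% confidence interval for each of the 34 genes (y axis, by step), coloured by call. The points of 32 genes lie left of 0, and Ucp2, at 0.51, lies furthest right.

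Of the scalings tried, 1 changed the count. When libraries were scaled to 15 cardiomyocyte marker genes in place of all genes, 8 of the 34 genes still fell (Lpl, Slc27a1, Acadvl, Acadm, Echs1, Acaa2, Ech1 and Etfa), Ucp2 still rose, and the median was -0.11. That scaling moved the median of all tested genes by 0.05 and their calls from 631 lower and 700 higher to 300 lower and 1202 higher. In ventricle tissue as a whole, fewer cells of a type and less RNA per cell cannot be told apart.

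**Figure D2:**
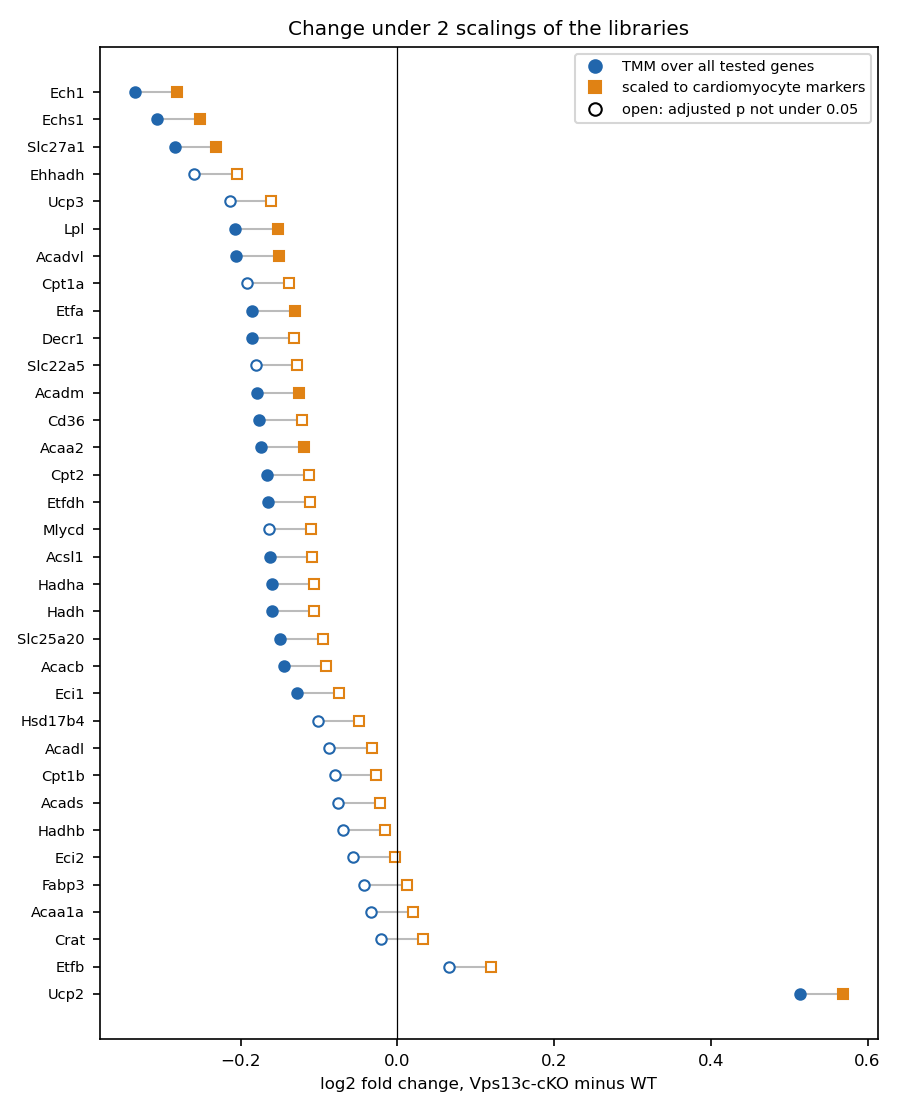
Log2 fold change (x axis, Vps13c-cKO minus WT) of each of the 34 genes (y axis), with libraries scaled by TMM over all tested genes (blue circles) or to cardiomyocyte markers (orange squares). Filled symbols passed an adjusted p of 0.05: 19 with TMM and 9 with the marker scaling, and every gene sits further right with the marker scaling.

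The level of a gene went with whether it was called. Of the 25 genes with a mean of at least 100 CPM, all had a log2 fold change below 0 and 18 fell. In that range 15.9% of 1261 tested genes fell. None of the 9 genes under 100 CPM fell by edgeR or DESeq2, and 1, Ucp2, rose. At all levels together 5.10% of tested genes fell, so a count of 0 among 9 genes is near that share. By edgeR 4 of the 9 were lower at an unadjusted p under 0.05. Counts at an unadjusted p, here and below, have no share over all tested genes beside them. The 9 include Cpt1b and Etfb, whose levels are uncertain, as described below. The median coefficient of variation among WT mice was 4.10% for the genes that fell and 9.30% for the 15 that did not pass. Among Vps13c-cKO mice these medians were closer, 4.79% and 5.87%. Of those 15, 8 had a 95% confidence interval of the change that lay below 0. The intervals are not adjusted for the number of genes tested, and no share over all tested genes is given beside this count.

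**Figure D3:**
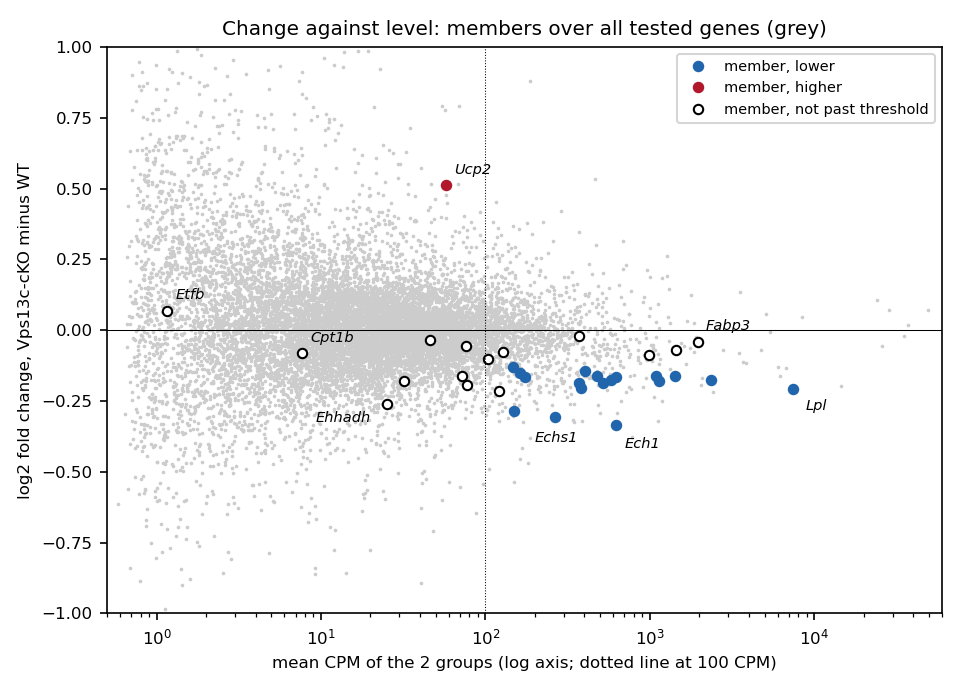
Log2 fold change (y axis, Vps13c-cKO minus WT) against mean CPM of the groups (x axis, log scale) for all tested genes (grey) and the 34 fatty acid genes (coloured by call). The 18 genes that fell all lie right of the dotted line at 100 CPM, Ucp2 lies furthest above 0 among the 34, and 83 genes with changes beyond 1 are outside the axes.

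Together the 34 genes took 2.47% to 2.62% of all counts in WT mice and 2.16% to 2.31% in Vps13c-cKO mice. Their summed level was 25186 ± 439 CPM in WT and 22492 ± 676 CPM in Vps13c-cKO, 10.7% lower, and the groups did not overlap. Lpl had the highest count of the 34 genes, and without it the sum was 9.46% lower. The sums are descriptions with no test. A sum weighs each gene by its level, so Lpl weighs most in uptake and Ech1 most in the auxiliary step. The sums of the carnitine shuttle and electron transfer include Cpt1b and Etfb, whose levels are uncertain, as described below. By step, the sum was 15.7% lower for the auxiliary enzymes, 11.4% lower for uptake and for electron transfer, 10.7% for activation, 9.71% for malonyl-CoA control, 9.35% for mitochondrial chain shortening, 7.05% for the peroxisomal enzymes and 6.67% for the carnitine shuttle. For the uncoupling proteins the sum was 176 ± 25.4 CPM in WT and 179 ± 26.7 CPM in Vps13c-cKO, a difference far smaller than the spread between mice, with Ucp2 higher and Ucp3 lower in mean. Vps13c-cKO mouse 3 was the lowest mouse of its group for 24 of the 34 genes, and WT mouse 5 was the highest of its group for 15. Without Vps13c-cKO mouse 3, 15 genes fell, and without WT mouse 5, 15 fell as well. The count was 14 without WT mouse 2 and 15 to 19 without any other single mouse.

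**Figure D4:**
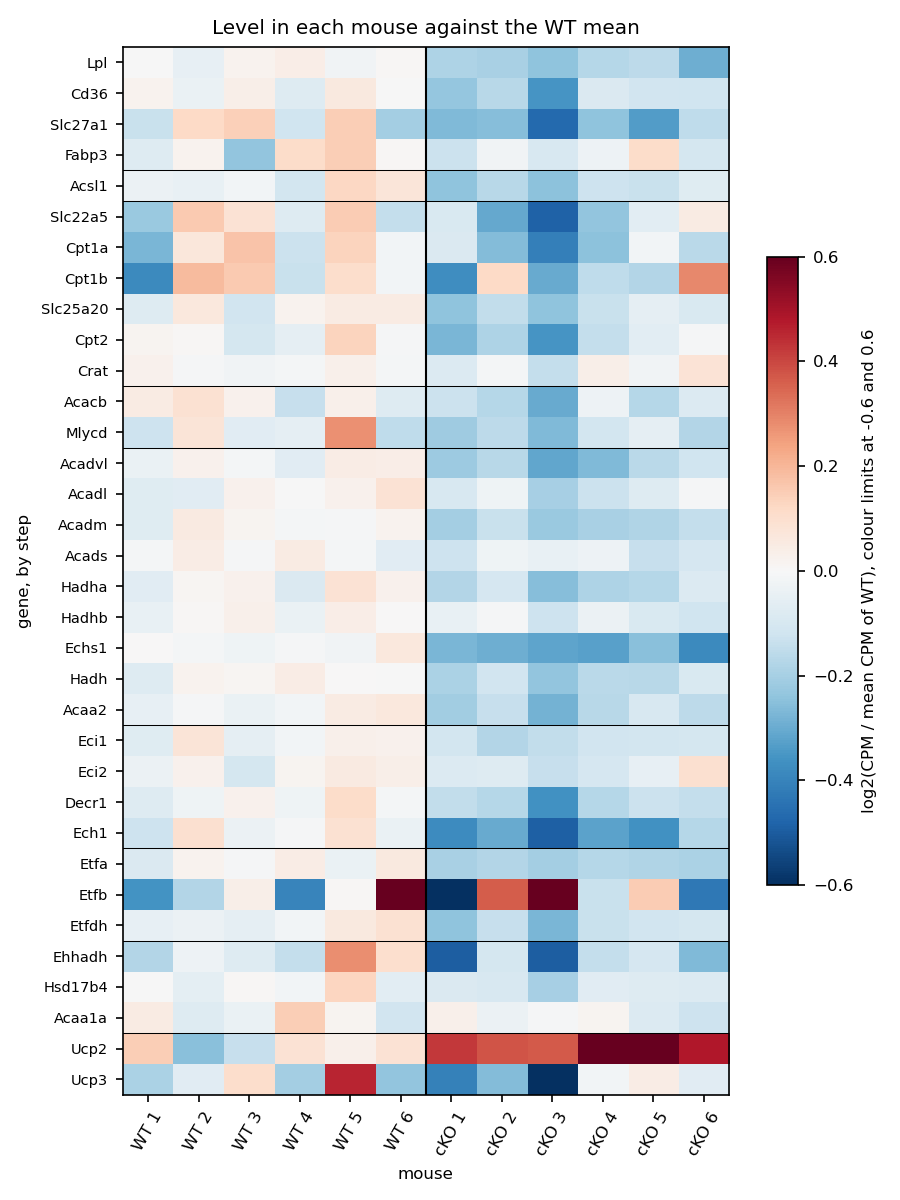
Level of each of the 34 genes (rows, by step) in each of the 12 mice (columns) as log2 ratio to the WT mean, with blue below and red above it. Most rows are blue in all or nearly all of the 6 Vps13c-cKO columns, and Ucp2 is red in all 6.

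Echs1, Acadm and Acadvl, enzymes of the mitochondrial spiral that fell, carry in their promoters the half-site AGGTCA that nuclear receptors of the PPAR and ERR families bind. Their promoters are shown because these 3 genes have the lowest p among the genes that fell with a match. Sequences are from RefSeq on GRCm38.p6, read 5′ to 3′ on the gene's strand from 250 bases before the start of the transcript to 50 bases after it. Capitals mark the half-site, or TGACCT where it lies on the other strand, as in Acadm. The windows are chr7:140116372-140116671 for Echs1, chr3:153944594-153944893 for Acadm and chr11:70015379-70015678 for Acadvl, all on the minus strand.
Echs1: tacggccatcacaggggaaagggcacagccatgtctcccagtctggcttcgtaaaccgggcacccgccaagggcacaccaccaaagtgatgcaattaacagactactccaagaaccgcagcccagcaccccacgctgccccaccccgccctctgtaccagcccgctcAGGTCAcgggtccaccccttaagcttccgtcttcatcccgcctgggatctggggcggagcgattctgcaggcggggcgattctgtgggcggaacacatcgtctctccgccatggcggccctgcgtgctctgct
Acadm: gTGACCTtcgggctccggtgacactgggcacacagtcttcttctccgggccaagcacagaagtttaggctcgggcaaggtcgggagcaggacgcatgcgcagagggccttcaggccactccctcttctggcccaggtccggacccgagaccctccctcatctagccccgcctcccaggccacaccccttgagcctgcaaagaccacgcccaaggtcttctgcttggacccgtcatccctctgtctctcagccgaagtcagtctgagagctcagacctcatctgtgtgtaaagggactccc
Acadvl: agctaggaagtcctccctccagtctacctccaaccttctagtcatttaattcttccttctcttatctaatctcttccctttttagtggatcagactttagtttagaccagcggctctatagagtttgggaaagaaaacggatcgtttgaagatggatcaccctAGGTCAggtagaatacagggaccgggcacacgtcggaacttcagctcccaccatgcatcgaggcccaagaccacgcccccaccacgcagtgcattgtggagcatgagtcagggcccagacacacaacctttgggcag
The first base of the match lies at position -83 in Echs1, -249 in Acadm and -87 in Acadvl, counted from the transcript start. RefSeq promoters were matched for 28 of the 34 genes. These 28 genes have 31 promoters in the table. AGGTCA, on either strand, was in 7 of the 31, each of another gene (Acacb, Acadm, Acadvl, Cd36, Cpt1a, Echs1 and Ucp3), and in 16.3% of all 32851 promoters of the table. Among the 15 matched genes that fell, 5 held it. This last count is by gene, while the 16.3% is by promoter, so they are not like for like. A part of the half-site in the fall of these genes was not tested. A pair of AGGNCA half-sites in one direction with 1 base between, the form that PPAR with RXR binds, was in none of the 31 and in 0.381% of all promoters. The ERR form TCAAGGTCA was likewise in none of the 31 and in 0.423% of all. The E-box CACGTG was in 1 of the 31, that of Slc27a1, and in 7.15% of all. TCAAGGTCA holds AGGTCA, so these searches overlap.

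Of the 4 uptake genes, 3 fell. Lpl (chromosome 8) codes for lipoprotein lipase, which muscle cells secrete to the capillary wall. It ranged from 7720.5 to 8195 CPM in WT (median 7989) and from 6500.5 to 7151 CPM in Vps13c-cKO (median 6991). The groups did not overlap, and the change was -0.21 ± 0.03, a fall of 13.4% with an adjusted p of 4.65e-05. Cd36, the fatty acid translocase of the plasma membrane, ranged from 2364 to 2599.7 CPM in WT (median 2515) and from 1953 to 2354 CPM in Vps13c-cKO (median 2259.9), again with no overlap (-0.18 ± 0.04, adjusted p = 0.00537). Slc27a1, the transport protein FATP1, was at 164 ± 18.2 CPM in WT and 135 ± 9.73 CPM in Vps13c-cKO, and 5 of 6 Vps13c-cKO mice lay below the lowest WT mouse (-0.28 ± 0.06, adjusted p = 0.00423). Fabp3, the heart fatty acid-binding protein of the cytosol, did not pass. Its levels were 1989 ± 185 CPM in WT and 1931 ± 119.8 CPM in Vps13c-cKO, and the 95% interval of its change was -0.15 to 0.07 (adjusted p = 0.686). Per kilobase of transcript, Fabp3 had the highest WT level of the 34 genes, 2416 CPM per kb, followed by Lpl at 1938 and Cd36 at 735. Acsl1, the main acyl-CoA synthetase of heart and the only gene of the activation step here, ranged from 1071 to 1259 CPM in WT (median 1133) and from 974 to 1098 CPM in Vps13c-cKO (median 1042). Of the 6 Vps13c-cKO mice, 5 lay below all WT mice, and Acsl1 fell by 10.7% (-0.16 ± 0.04, adjusted p = 0.0101).

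**Figure D5:**
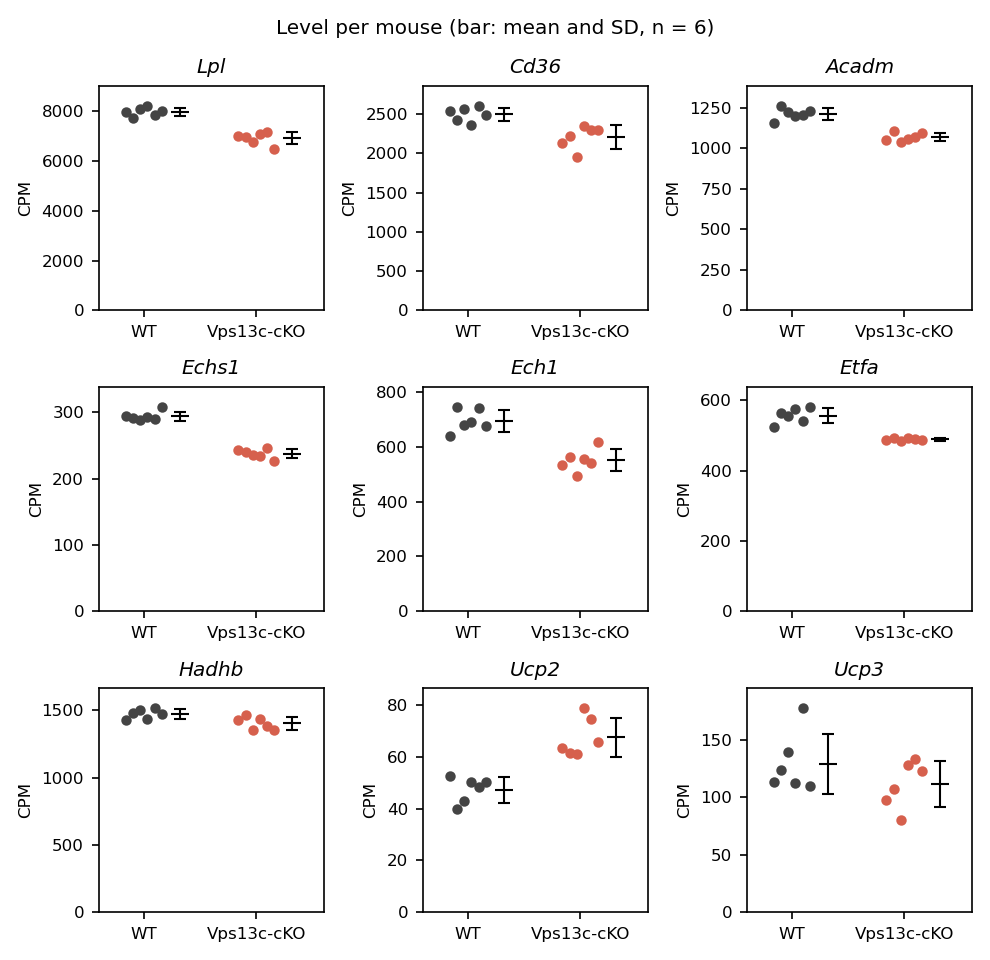
CPM (y axis, from 0) in each WT and Vps13c-cKO mouse (points), with group mean and SD (bars). The genes are Lpl, Cd36, Acadm, Echs1, Ech1, Etfa, Hadhb, Ucp2 and Ucp3. The Vps13c-cKO mice lie below all WT mice for Lpl, Cd36, Acadm, Echs1, Ech1 and Etfa, and above all of them for Ucp2. For Hadhb and Ucp3 the groups overlap.

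In the carnitine shuttle, 2 of 6 genes fell. Slc25a20, the carnitine-acylcarnitine carrier of the inner membrane, ranged from 157 to 177 CPM in WT (median 174) and from 144 to 164 CPM in Vps13c-cKO (median 154) (-0.15 ± 0.04, adjusted p = 0.0247). Cpt2, which re-forms acyl-CoA in the matrix, was at 185 ± 10.4 CPM in WT and 165 ± 14.5 CPM in Vps13c-cKO (-0.17 ± 0.05, adjusted p = 0.0417). Both lie near the threshold. Slc25a20 did not pass without WT mouse 2 or 5 or Vps13c-cKO mouse 1 or 3 (adjusted p from 0.0528 to 0.0653), nor did Cpt2 without WT mouse 1, 2, 5 or 6 or Vps13c-cKO mouse 1, 2, 3 or 4 (from 0.0557 to 0.102). Cpt1a, the isoform of the outer-membrane carnitine palmitoyltransferase best known from liver, was at 82.0 ± 9.31 CPM in WT and 71.9 ± 6.88 CPM in Vps13c-cKO and did not pass (-0.19 ± 0.07, adjusted p = 0.0828). Its interval was -0.34 to -0.05, and it passed without WT mouse 1 or Vps13c-cKO mouse 5 (adjusted p = 0.0161 and 0.0437). Slc22a5, the carnitine importer OCTN2 of the plasma membrane, was at 34.2 ± 3.80 CPM in WT and 30.2 ± 3.95 CPM in Vps13c-cKO (adjusted p = 0.177). Crat, which moves acetyl groups between CoA and carnitine, was at 374 ± 5.60 CPM in WT and 368 ± 20.6 CPM in Vps13c-cKO, with an interval of the change of -0.10 to 0.05 (adjusted p = 0.787).

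Cpt1b, the muscle isoform of the outer-membrane enzyme, was listed at only 7.92 ± 1.12 CPM in WT and 7.49 ± 1.37 CPM in Vps13c-cKO (adjusted p = 0.751). In the GENCODE M21 annotation 81.4% of its exon bases also belong to Gm44502, a gene model on the same strand. That model has 0 counts in all 12 mice, where 0 allows up to 3 counts, or 0.240 CPM in the shallowest library, by counting error alone. Etfb, the beta subunit of the electron transfer flavoprotein, shares 53.0% of its exon bases with Gm45233 in the same way and was listed at 1.14 ± 0.330 CPM in WT and 1.18 ± 0.477 CPM in Vps13c-cKO, against 556 ± 21.3 CPM in WT and 489 ± 3.91 CPM in Vps13c-cKO for its partner subunit Etfa. The labels do not state how reads in shared exons were counted, so the levels of Cpt1b and Etfb are uncertain. Without both, 18 of 32 genes fell.

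Malonyl-CoA blocks the outer-membrane step. Acacb, the acetyl-CoA carboxylase isoform that makes it at the mitochondrial surface, ranged from 385 to 451 CPM in WT (median 433) and from 344 to 415 CPM in Vps13c-cKO (median 382) and fell (-0.15 ± 0.04, adjusted p = 0.0403). The call was lost without WT mouse 1, 2, 3 or 5 or Vps13c-cKO mouse 1, 2, 3 or 5 (adjusted p from 0.0594 to 0.0993). Mlycd, the decarboxylase that removes malonyl-CoA, was at 75.7 ± 8.76 CPM in WT and 67.7 ± 3.53 CPM in Vps13c-cKO (-0.16 ± 0.06, adjusted p = 0.0916), and it passed without WT mouse 6 (adjusted p = 0.0483). The intervals of the change, -0.24 to -0.05 for the enzyme that makes the inhibitor and -0.29 to -0.04 for the one that removes it, overlapped.

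Of the 9 mitochondrial chain-shortening genes, 6 fell and 3 did not pass. Echs1 (chromosome 7), the short-chain enoyl-CoA hydratase, had the smallest p of the 34 genes. It ranged from 289 to 307 CPM in WT (median 292) and from 226 to 247 CPM in Vps13c-cKO (median 238). The gap between the groups was wider than the range of either, and Echs1 fell by 19.1% (-0.31 ± 0.03, adjusted p = 1.57e-06). Exons of Paox on the opposite strand cover 1.71% of Echs1 exon bases, and Paox was at 3.62 CPM in WT and 3.80 CPM in Vps13c-cKO. Acadm (chromosome 3), the medium-chain acyl-CoA dehydrogenase, ranged from 1152 to 1257 CPM in WT (median 1214) and from 1038 to 1104 CPM in Vps13c-cKO (median 1062), with no overlap, and fell by 11.7% (-0.18 ± 0.03, adjusted p = 0.000355). Acadvl, the very-long-chain dehydrogenase of the inner membrane, fell from 407 ± 12.8 to 353 ± 17.1 CPM (-0.21 ± 0.04, adjusted p = 0.000588). On the opposite strand, exons of Dvl2 cover 42.9% of Acadvl exon bases, and Dvl2 was at 5.40 CPM in WT and 5.55 CPM in Vps13c-cKO. The other dehydrogenases did not pass. Acadl, for long chains, was at 1016 ± 42.9 CPM in WT and 957 ± 45.5 CPM in Vps13c-cKO (adjusted p = 0.143, interval -0.16 to -0.01), and Acads, for short chains, was at 132 ± 3.98 CPM in WT and 125 ± 4.30 CPM in Vps13c-cKO (adjusted p = 0.200).

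Hadha and Hadhb code for the alpha and beta subunits of the trifunctional protein, which carries out the last 3 reactions on long chains. Hadha fell, with 1505 ± 66.5 CPM in WT and 1347 ± 58.4 CPM in Vps13c-cKO (-0.16 ± 0.04, adjusted p = 0.00480). Hadhb did not pass, with 1471 ± 36.0 CPM in WT and 1401 ± 47.5 CPM in Vps13c-cKO (-0.07 ± 0.03, adjusted p = 0.160). The short-chain hydroxyacyl-CoA dehydrogenase Hadh fell from 503 ± 14.3 to 449.98 ± 16.4 CPM (-0.16 ± 0.03, adjusted p = 0.00255). The thiolase Acaa2 fell from 620.1 ± 19.5 to 549.5 ± 24.5 CPM (-0.17 ± 0.03, adjusted p = 0.00191). For both, all 6 Vps13c-cKO mice lay below all WT mice.

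The auxiliary enzymes handle double bonds of unsaturated fatty acids, and 3 of the 4 fell. Ech1 (chromosome 7), the dienoyl-CoA isomerase, had the largest drop of the 34 genes. It ranged from 637 to 743 CPM in WT (median 685) and from 495 to 615 CPM in Vps13c-cKO (median 547). The groups did not overlap, and it fell by 20.7% (-0.34 ± 0.05, adjusted p = 4.74e-05). Decr1, the mitochondrial dienoyl-CoA reductase, was at 395 ± 17.8 CPM in WT and 348 ± 20.4 CPM in Vps13c-cKO (-0.19 ± 0.04, adjusted p = 0.00465). The enoyl-CoA isomerase Eci1 fell least of the 18, from 153 ± 6.07 to 140.1 ± 2.77 CPM (-0.13 ± 0.04, adjusted p = 0.0204), and did not pass without WT mouse 2 (adjusted p = 0.0566). Its relative Eci2 was at 77.8 ± 3.09 CPM in WT and 74.8 ± 4.39 CPM in Vps13c-cKO and did not pass (adjusted p = 0.470, interval -0.15 to 0.03).

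Electrons from the acyl-CoA dehydrogenases pass to the flavoprotein made of Etfa and Etfb, and from it to ubiquinone by Etfdh. Etfa (chromosome 9) ranged from 524 to 580.1 CPM in WT (median 559) and from 483 to 494 CPM in Vps13c-cKO (median 489). The Vps13c-cKO mice lay close together and below all WT mice, and Etfa fell by 12.1% (-0.19 ± 0.03, adjusted p = 0.000391). Etfdh fell to a like extent, with 658 ± 27.9 CPM in WT and 587 ± 28.8 CPM in Vps13c-cKO (-0.17 ± 0.04, adjusted p = 0.00541). Etfb had 192 counts over all 12 mice (adjusted p = 0.921), and its interval of -0.49 to 0.62 covers the change of its partner.

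None of the 3 peroxisomal genes passed the test, and all 3 had a log2 fold change below 0. By edgeR 2 of them were lower at an unadjusted p under 0.05, with no share over all tested genes given, and DESeq2 called 0. Ehhadh, the peroxisomal bifunctional enzyme, had the smallest p. It ranged from 24.2 to 33.2 CPM in WT (median 26.4) and from 19.5 to 25.6 CPM in Vps13c-cKO (median 23.8) (-0.26 ± 0.08, adjusted p = 0.0519), and its interval was -0.43 to -0.08. It passed without WT mouse 1 or 4 or Vps13c-cKO mouse 2 or 5, with adjusted p from 0.0329 to 0.0420. Hsd17b4, the other multifunctional enzyme of peroxisomes, was at 107 ± 5.27 CPM in WT and 99.7 ± 3.32 CPM in Vps13c-cKO. All 6 Vps13c-cKO mice lay below all WT mice, but the difference did not pass (-0.10 ± 0.04, adjusted p = 0.109). The thiolase Acaa1a was at 46.9 ± 3.12 CPM in WT and 45.8 ± 1.88 CPM in Vps13c-cKO (adjusted p = 0.738).

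Ucp2 was the only gene of the 34 that rose. It ranged from 39.6 to 52.3 CPM in WT (median 49.2) and from 60.8 to 78.5 CPM in Vps13c-cKO (median 64.5), and all 6 Vps13c-cKO mice lay above all WT mice. The rise was 42.8% (0.51 ± 0.07, adjusted p = 4.74e-05). Ucp3, the muscle uncoupling protein, was at 129 ± 26.0 CPM in WT and 112 ± 20.3 CPM in Vps13c-cKO and did not pass (-0.21 ± 0.11, adjusted p = 0.262). Exons of Dnajb13 on the opposite strand cover 4.36% of Ucp2 exon bases, and Dnajb13 rose from 0.546 to 1.89 CPM (adjusted p = 0.00247). Its part in the Ucp2 count was not tested.

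Both uncoupling genes are on chromosome 7, as are Echs1, Ech1 and Etfb. Of the 955 tested genes of that chromosome, 8.90% fell and 9.63% rose. The 2 largest drops, in Ech1 and Echs1, and the only rise were among these 5 genes. Among the 29 fatty acid genes on other chromosomes 16 fell, none rose, and all 29 log2 fold changes were below 0, from -0.28 to -0.02.

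Ratios between functionally paired genes within each mouse do not depend on how libraries are scaled. The 7 pairs were chosen with the values of their genes in view, so the ratios are descriptions with no test. For Acadvl to Acadl the ratio ranged from 0.383 to 0.428 in WT mice (median 0.399) and from 0.363 to 0.378 in Vps13c-cKO mice (median 0.369), with no overlap. For Ucp2 to Ucp3 it ranged from 0.272 to 0.461 in WT (median 0.383) and from 0.534 to 0.757 in Vps13c-cKO (median 0.591), again with no overlap. The groups overlapped for the other pairs. The median ratio was 1.02 in WT and 0.946 in Vps13c-cKO for Hadha to Hadhb, the 2 subunits of 1 protein, and 1.18 and 1.11 for Acadm to Acadl. It was 0.495 and 0.439 for Cpt2 to Crat, 3.92 and 3.59 for Lpl to Fabp3, and 1.95 and 1.91 for Eci1 to Eci2.

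Outside the 34 genes, 54 more uptake and oxidation genes were listed, and 48 could be tested. Of these 9 fell (18.8%, against 5.10% of all tested genes), none rose, and the median log2 fold change was -0.06. Among the 10 of them with a mean of at least 100 CPM 5 fell, where 15.9% of all tested genes at that level fell. By edgeR 3 had an unadjusted p under 0.05 with a higher level, and DESeq2 called 0 higher. In uptake and activation 3 of 16 fell, namely Angptl4, an inhibitor of lipoprotein lipase, with a change of -0.59 ± 0.12 (adjusted p = 0.00247), the lipoprotein receptor Vldlr (-0.15 ± 0.04, adjusted p = 0.00705) and Got2 (-0.12 ± 0.03, adjusted p = 0.0107). Angptl4 was at 21.9 CPM in WT and 14.6 CPM in Vps13c-cKO, so an inhibitor of the lipase fell along with Lpl. In mitochondrial oxidation 4 of 17 fell. They were Pcca, Pccb and Mmut, which turn propionyl-CoA from odd chains into succinyl-CoA, and the thiolase Acat1 (log2 fold changes from -0.18 to -0.13, largest adjusted p 0.0192). In peroxisomal oxidation 2 of 15 fell, the fatty acyl transporters Abcd3 (-0.19 ± 0.04, adjusted p = 0.00596) and Abcd2 (-0.45 ± 0.12, adjusted p = 0.0155). With libraries scaled to cardiomyocyte markers 3 of the 48 fell (Angptl4, Pcca and Abcd2) and 2 rose (Scp2 and Acad12, named after their values were seen). Mmut did not pass without Vps13c-cKO mouse 3 (adjusted p = 0.0520).

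Of 20 tested regulators 3 fell and none rose (edgeR, with 1 higher at an unadjusted p under 0.05 and 0 called higher by DESeq2), against 5.10% and 5.65% of all tested genes. Ppargc1a, which codes for PGC-1 alpha, ranged from 187 to 252 CPM in WT (median 204) and from 133 to 164 CPM in Vps13c-cKO (median 157), and the groups did not overlap (-0.47 ± 0.07, adjusted p = 0.000133). Rxrg, a partner receptor of the PPARs, fell (-0.27 ± 0.05, adjusted p = 0.00205), as did Lpin1, which also acts with PGC-1 alpha (-0.27 ± 0.06, adjusted p = 0.00586). All 3 also fell with libraries scaled to cardiomyocyte markers. Ppara was at 41.1 ± 7.31 CPM in WT and 33.8 ± 4.37 CPM in Vps13c-cKO and did not pass (-0.28 ± 0.10, adjusted p = 0.0784). It passed without WT mouse 4 or Vps13c-cKO mouse 6 (adjusted p = 0.00427 and 0.0223), and without WT mouse 4 the regulators that fell numbered 5, with Ppara and Nrip1 added. Esrra, which codes for ERR alpha, was at 90.7 ± 5.46 CPM in WT and 89.6 ± 2.92 CPM in Vps13c-cKO (adjusted p = 0.856).

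Markers of the cell types in ventricle also differed between the groups, and their part in the fall of the fatty acid genes was not tested beyond the marker scaling given above. The summed level of the 15 cardiomyocyte markers was 86607 to 93867 CPM in WT and 82899 to 89390 CPM in Vps13c-cKO, 4.86% lower on average, with none of the markers at 0 in any mouse. Tnni3, Atp2a2, Myl2 and Tnnt2 fell, and Tnnc1 and Mybpc3 rose. Of 12 fibroblast markers 9 rose (Col1a1, Col1a2, Col3a1, Lum, Postn, Fbln2, Mfap5, Dpt and Gsn), with sums of 2034 to 2280 CPM in WT and 2355 to 2600.0 CPM in Vps13c-cKO. Of 12 macrophage markers 4 rose (Lyz2, C1qa, C1qb and C1qc), with sums of 265 to 359 against 333 to 391 CPM. Among 12 endothelial markers Cldn5 fell, with sums of 1142 to 1313 against 1147 to 1205 CPM. Of 9 tested smooth muscle and pericyte markers Rgs5 and Pdgfrb fell and Myh11 rose, with sums of 1631 to 1946 against 1569 to 1638 CPM. Of 8 adipocyte markers, a cell type rich in Lpl and Cd36, only Cidea had enough counts to test, and it rose from 17.0 to 19.9 CPM (adjusted p = 0.0439). Cidea had 1435 counts over the WT mice and 1601 over the Vps13c-cKO mice, far more than any other of the 8. Which cells its counts came from was not tested. Adipoq had 18 counts over the WT mice and 13 over the Vps13c-cKO mice, Lep had 1 and 0, and Ucp1 had 2 and 0. The other untested markers had more counts in Vps13c-cKO. Plin1 had 4 and 17, Cidec 7 and 10, Retn 2 and 4, and Cfd 14 and 19.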

How the data were processed

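Poly-A RNA of 12 ventricles was sequenced after PCR without molecular identifiers, per the labels' protocols. The authors deposited raw counts of reads, as whole numbers for each gene in each mouse. GRCm39 and the tools HTSeq 0.9.1, HISAT2 2.1.0 and fastp 0.22.0 are listed, per the submitters' processing notes. Neither the labels nor these notes name an annotation release, a strand setting or an HTSeq mode. Whether reads of overlapping genes on opposite strands were counted apart is therefore not known. Symbols, chromosomes, exon overlaps and transcript lengths (longest principal transcript) came from GENCODE M21, an annotation of GRCm38, and 21851 of 21959 IDs matched. The only coordinates given are therefore those of the RefSeq promoter windows, which are on GRCm38.p6.

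Group and mouse number came from the sample titles, and 0 value columns went unused. Genes passing filterByExpr (12384, with 99.9% of counts) were tested with edgeR 4.0.16 in R 4.3.3 (TMM, two-sided quasi-likelihood F test, Benjamini-Hochberg adjustment). The 4480 IDs with 0 counts in every mouse were left out by that filter. The biological coefficient of variation was 0.0661. Within a group, chi-square values per gene between mice were 3.11 to 5.62, well above sampling noise, so no mouse was treated as a repeat. The first principal component (28.6% of variance) separated all WT from all Vps13c-cKO mice. The code was tested on simulated counts.

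The members and gene lists were chosen with earlier results of these data known, so counts over them are descriptions. All 34 members are named. The others named are Vps13c, up to 4 genes per direction of each other list by smallest p, Ppara, Ppargc1a, Esrra, and the called marker genes; gene pairs, overlapping genes, Scp2, Acad12 and Nrip1 were picked with their values in view. Alternatives were other scalings (DESeq2 size factors, upper quartile, mitochondrially encoded genes left out, cardiomyocyte markers), DESeq2 1.42.0 as the test, a floor of 5 mean CPM or no filter, limma-voom (limma 3.58.1) with and without sample weights, a replicate block, chromosome 7 members left out, and each mouse left out. A planned comparison of protein sequences was not made.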

Additional observations from a re-analysis of the deposited data

Results flagged for a closer look

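In each group of 6 mice, a mouse was singled out where its gap to the nearest other mouse divided by the range of the group was above the 95% critical value of Dixon's test. Of 68 groups checked (34 genes in WT and in Vps13c-cKO), 6 held such a mouse, and chance alone gives about 5% of groups. Echs1 was at 307 CPM in WT mouse 6, where the next highest WT mouse was at 295 CPM, so the mouse that stands apart lies on the far side from the Vps13c-cKO mice. Decr1 was at 307 CPM in Vps13c-cKO mouse 3, where the next lowest was at 351 CPM. Eci2 was at 83.2 CPM in Vps13c-cKO mouse 6, where the next highest was at 75.1 CPM. Hsd17b4 was at 117 CPM in WT mouse 5, with the next at 107 CPM, and at 93.1 CPM in Vps13c-cKO mouse 3, with the next at 99.9 CPM. Etfb was at 1.76 CPM in WT mouse 6, with the next at 1.17 CPM. Echs1 and Decr1 passed the test, and Eci2, Hsd17b4 and Etfb did not pass it, in each of the 12 fits that left out 1 mouse.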

How the results depend on the processing

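The 18 genes that fell did so also with DESeq2 size factors, upper-quartile factors, mitochondrially encoded genes left out, a floor of 5 mean CPM, no filter, DESeq2, and limma-voom with or without sample weights. With libraries scaled to cardiomyocyte markers 8 fell, and the log2 fold change turned positive for Fabp3 (0.013), Crat (0.032) and Acaa1a (0.019). Without the 5 chromosome 7 genes, 16 of 29 fell and 0 rose. Among the 34 genes, the only other change of sign outside the fits that left out 1 mouse was Etfb with sample weights (-0.0065). Leaving out each mouse gave 14 to 19 genes that fell and 1 that rose, with Etfb from -0.13 to 0.22 and Crat from -0.045 to 0.0019. Of 48 other pathway genes the marker scaling called 3 lower and 2 higher, and Esrra had 0.036. Leaving out each mouse gave 0 to 1 of them higher (Acad12, without Vps13c-cKO mouse 5), 3 to 5 regulators lower, and Esrra from -0.040 to 0.0073. With the replicate block, 19 fell (Acacb lost, Mlycd and Ehhadh gained) and 1 rose, Ppara passed (adjusted p = 0.0267), and over all genes 625 fell and 687 rose. Mouse numbers were not taken as pairs. For same-numbered mice, the deviations from the 2 group means had correlations of -0.04 to 0.09. By these deviations, only number 6 correlated best with its own number. The depth of the libraries limits what can be detected at low counts, such as the 192 of Etfb over all 12 mice.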
